A study of Homo sapiens with 10 samples.

Results

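The genes described here are 10 transcription factors of epithelial cells: the ETS factors ELF3, ELF5, EHF and SPDEF, the Krüppel-like factors KLF4 and KLF5, the grainyhead-like factors GRHL1 and GRHL2, the zinc finger repressor OVOL1, and TP63. Each gene was represented by a window of its GENCODE gene body plus 50 kb on each side (hg38), and every H3K27ac peak overlapping that window was counted for it. The 10 windows stand among those of 19970 protein-coding genes, and they held 128 of the 76044 regions obtained by merging overlapping peaks of all lists. The peaks came from ChIP-seq of H3K27ac, the acetylation of lysine 27 of histone H3, in SKBR3 and MDA-MB-453 cells, both established HER2 breast cancer cell lines. Each line was either left untreated or given TWEAK, the TNF-like cytokine that binds the receptor Fn14, and each of these 4 groups had 2 libraries and therefore 2 peak lists. The labels give a TWEAK dose of 10 ng/ml over 48 h, renewed at 24 h, and 8 h of serum starvation in all groups, and they name no genetic alteration in any of them. A comparison of SKBR3 with MDA-MB-453 is a comparison of 1 cell line with 1 other, so it cannot be told apart from any other property in which these lines differ.

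H3K27ac marks active promoters and enhancers, and long clusters of acetylated enhancers are typical of genes that specify cell identity. ELF3, ELF5 and EHF are epithelium-restricted ETS factors that bind GGAA sites, ELF5 is best known as a driver of alveolar differentiation in the mammary gland, and SPDEF is an ETS factor of luminal and secretory epithelium. KLF4 and KLF5 bind GC-rich and CACCC sites, the grainyhead-like factors maintain genes of the epithelial junctions, and OVOL1 represses mesenchymal genes. TP63 is transcribed from an upstream promoter that gives TAp63 and from an internal promoter that gives ΔNp63, the form typical of basal epithelial cells. TWEAK acting on Fn14 is known to activate NF-κB, in part through the non-canonical pathway, and AP-1.

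The lists held between 43684 and 51687 peaks in SKBR3 and between 36148 and 37813 in MDA-MB-453, and the list of SKBR3 with TWEAK, replicate 2, was the longest of the 8. The windows of the 10 factors were overlapped by 90 to 116 peaks in an SKBR3 list and by 54 to 60 in an MDA-MB-453 list. Because SKBR3 lists cover more of the genome, the median difference in covered length over all genes was 0.23 on the log2 scale, and each difference between lines is also given relative to that shift where it matters. Promoter peaks at KRT8, KRT18, KRT19, EPCAM and ERBB2 were found in all 4 lists of each line, whereas the promoter of CDH1, the gene of E-cadherin, had one in all 4 MDA-MB-453 lists and in 0 of 4 SKBR3 lists. Markers of leukocytes (PTPRC, CD3E, CD79A) and of endothelium (PECAM1, VWF) had a promoter peak in 0 of 8 lists. Of the fibroblast markers COL1A1 had one in all 8 lists, and COL1A2 and PDGFRB in 0. Of the basal markers KRT5 had one in 2 SKBR3 lists, ACTA2 in 3 MDA-MB-453 lists and KRT14 in 0.

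The sequences below are examples and were not used in the comparisons between lines or with TWEAK. The first set comprises the 250 bases upstream of a transcription start at which a peak was called, on the strand of the gene, and capitals mark a motif match: an NF-κB site in ELF3 and a KLF site (GGGNGTGG) in ELF5, each searched on both strands. Positions are hg38, with ELF3 at chr1:202007695-202007944 on the plus strand and ELF5 at chr11:34513806-34514055 on the minus strand. Both windows lie outside the annotated exons.
ELF3 promoter: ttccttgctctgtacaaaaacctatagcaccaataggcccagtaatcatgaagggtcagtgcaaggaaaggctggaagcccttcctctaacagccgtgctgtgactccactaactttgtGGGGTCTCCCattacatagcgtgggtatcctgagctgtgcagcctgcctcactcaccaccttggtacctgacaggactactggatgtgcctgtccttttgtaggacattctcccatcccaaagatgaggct
ELF5 promoter: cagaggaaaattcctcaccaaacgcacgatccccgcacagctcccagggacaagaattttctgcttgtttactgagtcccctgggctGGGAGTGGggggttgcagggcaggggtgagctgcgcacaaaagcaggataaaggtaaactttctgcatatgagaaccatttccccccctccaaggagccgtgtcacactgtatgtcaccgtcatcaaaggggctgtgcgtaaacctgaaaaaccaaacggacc

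The ELF3 window carried its NF-κB match 126 bases and the ELF5 window its KLF match 159 bases upstream of the start. Of the 38972 promoters of all protein-coding genes, 4.97% held the NF-κB motif, 15.5% the KLF motif, 1.55% the grainyhead motif (AACCNGTT), 6.53% an ETS site (AGGAAGT) and 3.76% an AP-1 site (TGACTCA or TGAGTCA). Of the 23 promoters of the 10 factors, 3 held the NF-κB motif (2 of them at ELF3), 3 the KLF motif, 2 the grainyhead motif, 2 the ETS site (GRHL1 and KLF4) and 1 the AP-1 site (ELF5). A match is only a description of the letters. The RefSeq promoter table (hg38) listed 8 of the 10 factors with 10 promoters, and all 10 were identical to the genome sequence used here.

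The first comparison asked how acetylation around the factors differed between the lines. ELF3, ELF5, SPDEF, KLF4, KLF5, GRHL1 and GRHL2 had longer acetylated stretches in SKBR3, and EHF and TP63 had longer ones in MDA-MB-453, which was 7 and 2 of 10 (limma on log2(covered kb + 1) with a pseudocount of 1 kb, Benjamini-Hochberg over 18251 genes). The largest contrasts were at KLF5, which was nearly bare of peaks in MDA-MB-453, and at GRHL1, which had long intronic and promoter domains only in the SKBR3 lists. Among all genes tested, 47.6% were called higher and 27% lower in SKBR3, so a difference between the lines was the usual state of a gene and the count for the factors is not by itself a result about them. With each list centred on its own median, the calls over all genes were 6820 higher and 7047 lower in place of 8684 and 4935. The median difference of the 10 factors was 0.60 on the log2 scale, against 0.23 for all genes. Windows were also ranked by covered length among all genes tested within each list. Of the factors called higher, ELF3, KLF5 and GRHL1 ranked higher in every SKBR3 list, and the ranges of ELF5, KLF4 and GRHL2 overlapped. SPDEF ranked lower in SKBR3, at the 90.0 to 92.3 percentile of genes against 96.3 to 96.8 in MDA-MB-453. With 4 lists against 4, the exact two-sided permutation test gave p = 0.02857 for 9 of the factors, the smallest value it can give, and p = 0.8571 for OVOL1. The study's methods call its ChIP-seq replicates biological, and the labels do not say how the cultures were kept apart. The p-values measure the spread between these few libraries of each line.

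**Figure D1:**
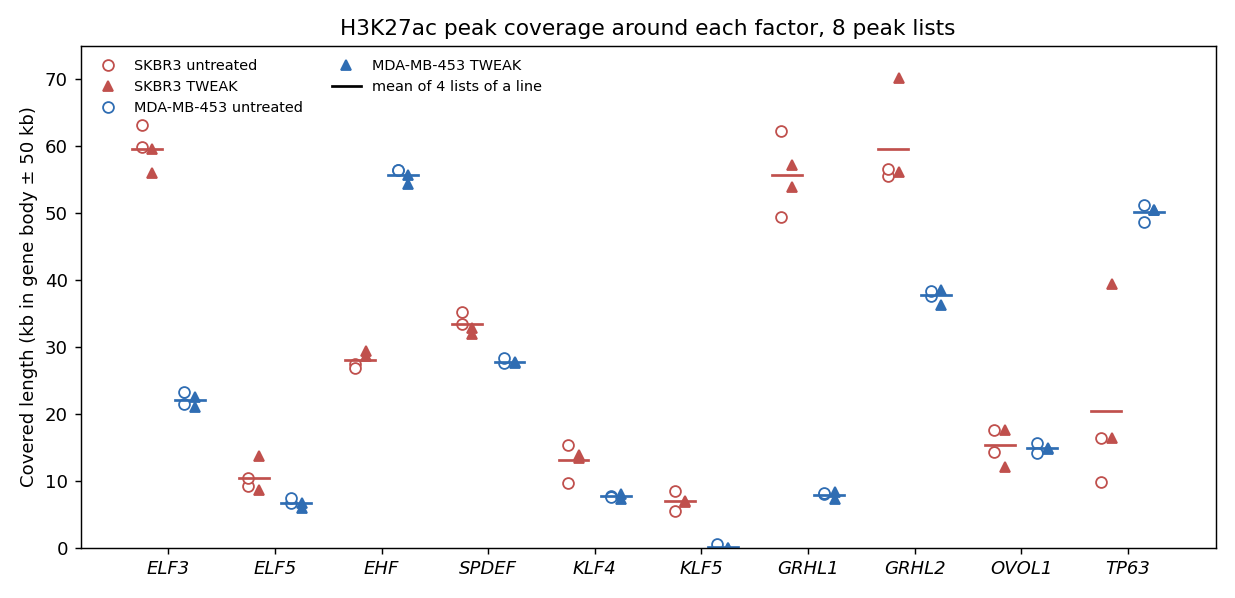
Covered length, in kb of H3K27ac peaks within the gene body plus 50 kb on each side, for each of the 10 factors; every point is 1 of the 8 peak lists (red SKBR3, blue MDA-MB-453, open circles untreated, filled triangles TWEAK), and horizontal bars are the means of the 4 lists of a line. The SKBR3 points of ELF3 lie between 56.0 and 63.2 kb and its MDA-MB-453 points between 21.1 and 23.2 kb, those of EHF and TP63 are higher in MDA-MB-453, and those of OVOL1 overlap.

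Among the ETS factors, ELF3 was covered by 63.2 and 59.8 kb of peaks in the untreated and 59.7 and 56.0 kb in the TWEAK lists of SKBR3. In MDA-MB-453 the corresponding values were 21.5 and 23.2 kb, and 21.1 and 22.5 kb. All 4 SKBR3 lists were above all 4 MDA-MB-453 lists, and the log2 difference was 1.39 ± 0.05 (SE, n = 4 lists a line, limma adjusted p = 8.217e-07). The peak over the ELF3 promoter was 22.03 to 26.5 kb wide in SKBR3 and 5.34 to 6.65 kb in MDA-MB-453. The strongest peak did not follow the width, as it stood at the 98.9 to 99.5 percentile of scores in its list in SKBR3 and at the 99.4 to 99.6 percentile in MDA-MB-453. It was not at the promoter. The shared region with the highest mean percentile, 99.2 over 8 lists, lay downstream of the gene in intergenic DNA at chr1:202040321-202052212, centred 35.6 kb from the start.

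EHF showed the opposite pattern to ELF3. It was covered by 27.5 and 26.9 kb (untreated) and 29.4 and 28.7 kb (TWEAK) in SKBR3. It was covered by 56.5 and 56.4 kb (untreated) and 54.4 and 55.8 kb (TWEAK) in MDA-MB-453. No SKBR3 list reached the MDA-MB-453 range, and the log2 difference was −0.96 ± 0.04 (limma adjusted p = 1.242e-06). In MDA-MB-453 nearly the whole gene lay under 1 peak, 53.1 and 53.2 kb wide in the untreated lists and 39.9 and 38.8 kb wide in the TWEAK lists. The shorter widths did not go with a loss of covered length, as the stretch was divided into more peaks, 7 and 6 in the window with TWEAK against 4 and 4 without. In SKBR3 the same stretch was held as separate peaks of at most 14.2 kb, with 9 peaks in the window in each list, and the start of a further group of transcripts at 34624260 to 34624276 on chromosome 11 had a peak in all 4 MDA-MB-453 lists but in 0 of 4 SKBR3 lists.

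ELF5 and SPDEF differed less. ELF5 was covered by 9.26, 10.4, 8.64 and 13.7 kb in SKBR3 (untreated 1 and 2, then TWEAK 1 and 2) and by 6.68, 7.48, 5.91 and 6.63 kb in MDA-MB-453. The ranges did not overlap, and the log2 difference was 0.57 ± 0.14 (limma adjusted p = 0.007348), which was no longer called with flanks of 100 kb (0.10) or when only peaks with a q-value under 1e-05 were kept (0.24). The ELF5 window shared 1 region, at chr11:34569702-34572153, with that of EHF, which lies next to it on chromosome 11. At SPDEF the values were 35.2, 33.5, 31.9 and 32.9 kb in SKBR3 and 27.6, 28.4, 27.6 and 27.7 kb in MDA-MB-453. The log2 difference of 0.25 ± 0.05 (limma adjusted p = 0.002105) was 0.02 relative to the median of all genes, and it was not called with the lists centred on their medians (0.0049) and had the opposite sign with the stricter q-value (−0.0037). In every list SPDEF lay under a broad peak, 25.2 to 25.4 kb wide in SKBR3 and 22.02 to 22.4 kb wide in MDA-MB-453, which took in the promoter. Over 8 lists the shared regions with the highest mean percentile were the promoter domains of SPDEF (82.4), EHF (96.8), GRHL1 (88.9) and GRHL2 (98.3), the region between ELF5 and EHF named above (84.7) and an intergenic region upstream of KLF4 (chr9:107503298-107506161, 81.8), and KLF5 had no region present in all 8.

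**Figure D2:**
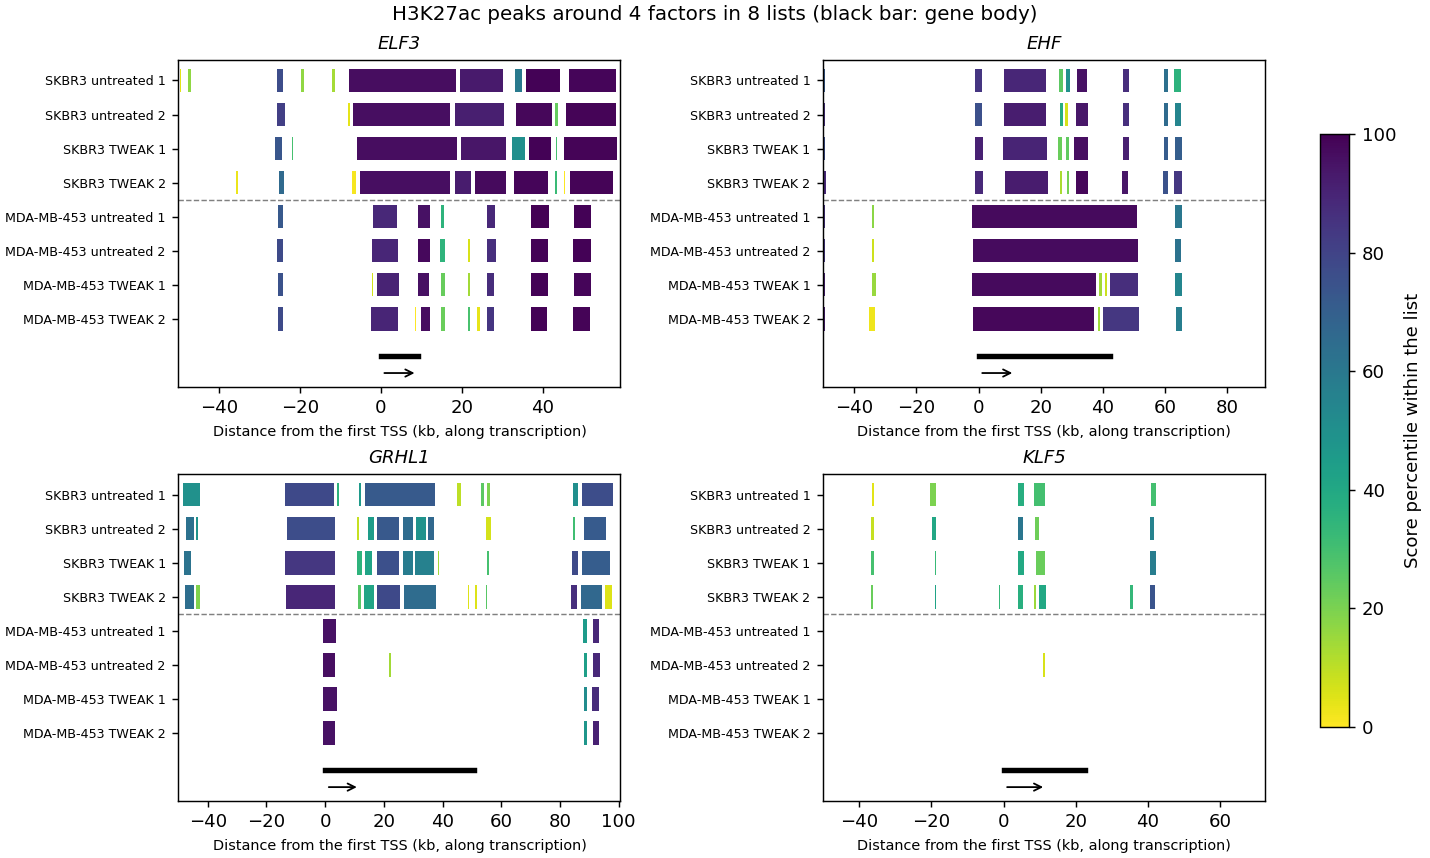
H3K27ac peaks around ELF3, EHF, GRHL1 and KLF5 in each of the 8 lists; the horizontal axis is the distance in kb from the first annotated start in the direction of transcription, each row is a list, each bar is a peak coloured by its score percentile, and the black line is the gene body. The ELF3 and GRHL1 rows hold long bars in SKBR3, the EHF rows hold 1 peak of 53.1 or 53.2 kb in the untreated MDA-MB-453 lists, and the KLF5 rows of MDA-MB-453 are empty except for 1 peak of 0.602 kb.

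Of the Krüppel-like factors, KLF5 had 5 to 8 peaks in an SKBR3 window, covering 8.40 and 5.45 kb in the untreated and 6.88 and 6.96 kb in the TWEAK lists. In MDA-MB-453, 3 lists held no peak in the window, and untreated replicate 2 held a single peak of 0.602 kb at the 6.11 percentile of that list. The log2 difference, which depends on the pseudocount for values this low, was 2.80 ± 0.18 (limma adjusted p = 6.701e-06). The KLF5 peaks in SKBR3 were short and of middling strength, with the strongest at the 37.5 to 74.1 percentile. KLF4 was covered by 15.4, 9.65, 13.3 and 13.9 kb in SKBR3 and by 7.72, 7.602, 8.01 and 7.33 kb in MDA-MB-453. All SKBR3 values were the higher ones, and the log2 difference was 0.68 ± 0.13 (limma adjusted p = 0.002493). Over the KLF4 gene body alone the difference was −0.19 and not called (adjusted p = 0.4811), and the excess in SKBR3 was found only with the flanks included.

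Both grainyhead-like factors had more covered length in SKBR3. GRHL1 was covered by 62.3 and 49.5 kb (untreated) and 53.9 and 57.2 kb (TWEAK) in SKBR3. It was covered by 8.02, 8.17, 8.26 and 7.32 kb in MDA-MB-453. The lists fell into 2 separate ranges, with a log2 difference of 2.66 ± 0.09 (limma adjusted p = 4.507e-07) that was the largest after KLF5 among the 10 factors. Here too width and strength were ordered differently: the GRHL1 promoter peak was 16.2 to 16.8 kb wide at the 76.9 to 89.2 percentile in SKBR3, and 4.06 to 4.89 kb wide at the 95.5 to 96.2 percentile in MDA-MB-453. At GRHL2 the values were 55.5, 56.5, 56.1 and 70.2 kb in SKBR3 and 37.5, 38.4, 38.5 and 36.3 kb in MDA-MB-453. The ranges were apart, with a log2 difference of 0.64 ± 0.07 (limma adjusted p = 0.0001328), but with the stricter q-value the difference was −0.205 and not called (adjusted p = 0.05505). The GRHL2 promoter peak stood between the 97.0 and 99.0 percentile in all 8 lists.

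At OVOL1 the lines overlapped. The covered length was 17.6, 14.3, 17.5 and 12.1 kb in SKBR3 and 15.7, 14.1, 14.8 and 14.9 kb in MDA-MB-453, and both the highest and the lowest value belonged to SKBR3. The log2 difference of 0.03 ± 0.12 (limma adjusted p = 0.829) became −0.20 relative to the median of all genes and also changed sign under several other settings, so no direction can be given. The OVOL1 window also overlaps AP5B1, CFL1 and SNX32, and its shared region with the highest mean percentile, 79.8 over 8 lists, was at the promoter of AP5B1.

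TP63 had the widest spread within a line. The window was covered by 9.83 and 16.3 kb in the untreated and by 16.3 and 39.3 kb in the TWEAK lists of SKBR3. In MDA-MB-453 it was covered by 48.6 and 51.2 kb, and by 50.5 and 50.5 kb. Every SKBR3 list was below every MDA-MB-453 list, with TWEAK replicate 2 the nearest, and the log2 difference was −1.43 ± 0.26 (limma adjusted p = 0.001825). The widest TP63 peak measured 13.2 to 13.3 kb in MDA-MB-453 and 2.33 to 5.24 kb in SKBR3. A peak within 1 kb of the TAp63 start was called in all 4 MDA-MB-453 lists, at the 45.7, 43.4, 51.1 and 49.1 percentile. In SKBR3 there was one only in TWEAK replicate 2, at the 26.2 percentile. All of these peaks lay upstream, and none covered the start. Relative to it they ended at −0.845, −0.914, −0.922 and −0.497 kb in MDA-MB-453 and at −0.695 kb in SKBR3. The internal start of the ΔNp63 transcripts, 158 kb downstream, had a peak in 0 of 8 lists. The shared region with the highest mean percentile, 87.7 over 8 lists, was intronic at chr3:189764036-189775545, and a region beyond the gene end, chr3:189935775-189949151, followed with 86.9.

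**Figure D3:**
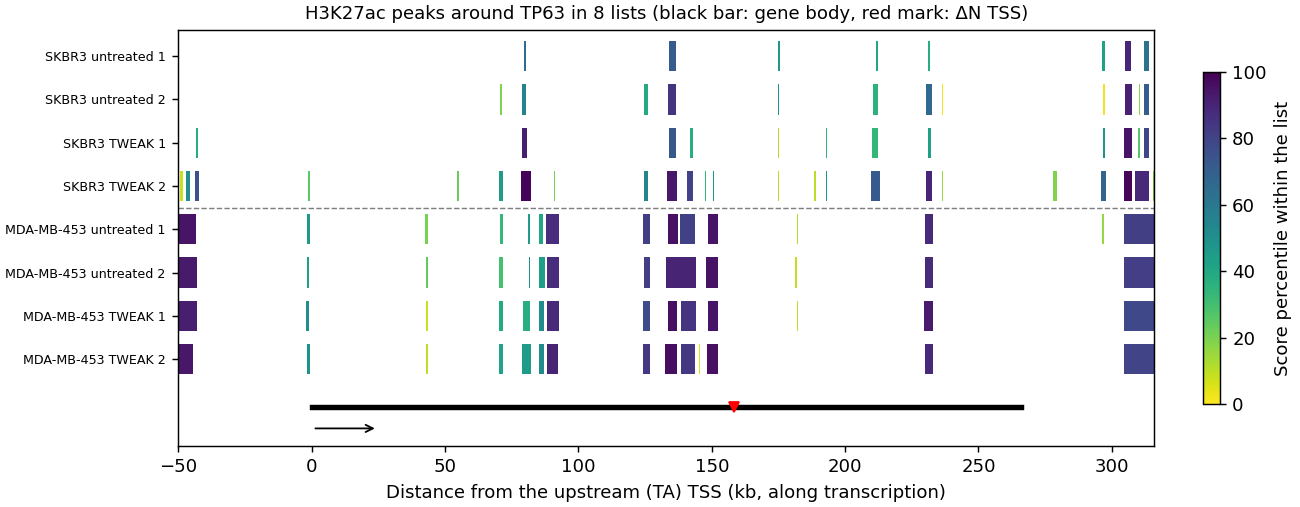
H3K27ac peaks in the TP63 window in each of the 8 lists, with the distance in kb from the first annotated TP63 start on the horizontal axis and 1 row for each list; bars are peaks coloured by their score percentile, the black line is the gene body from the TAp63 start, and a red mark shows the ΔNp63 start 158 kb downstream. MDA-MB-453 rows hold 13 to 15 peaks, SKBR3 rows 8 to 12, and SKBR3 with TWEAK, replicate 2, holds 24.

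Promoter acetylation was then compared start by start, with starts of protein-coding transcripts of a gene within 500 bp of each other taken as 1 cluster and a peak within 1 kb counted. Of the 23 start clusters of the 10 factors, 15 had a peak in all 4 SKBR3 lists and 15 in all 4 MDA-MB-453 lists, beside 38.3% and 39.1% of 38972 clusters of all genes. With a distance of 500 bp the counts were 15 and 14. Neighbouring starts can share a peak, as all EHF clusters did in each MDA-MB-453 list, so the clusters are not independent units. The lines differed at named starts. The ELF5 start whose sequence is given above had a peak of 1.12 to 1.48 kb in all 4 SKBR3 lists, at the 76.9, 73.5, 78.8 and 72.5 percentile, and in 0 of 4 MDA-MB-453 lists. The KLF5 start at 73059005 on chromosome 13 likewise had a peak in every SKBR3 list, at the 37.5, 60.8, 39.7 and 36.9 percentile, and in no MDA-MB-453 list. The promoter peak of KLF4 ranked alike in both lines, at the 70.3 to 76.2 percentile in SKBR3 and the 75.6 to 78.0 percentile in MDA-MB-453. The peak at the first OVOL1 start stood at the 84.8, 68.7, 80.5 and 47.6 percentile in SKBR3 and at the 79.5 to 83.2 percentile in MDA-MB-453.

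**Figure D4:**
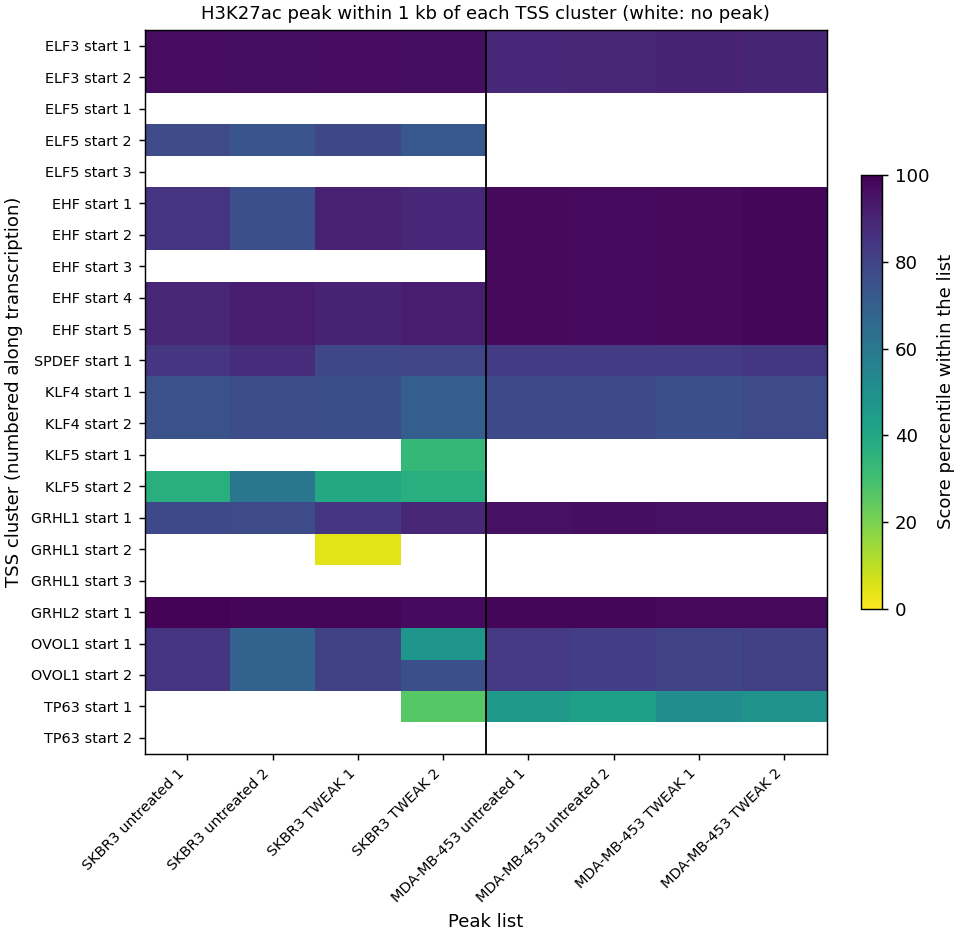
Within-list percentile of the peak score at each of the 23 start clusters of the 10 factors, with clusters as rows and the 8 lists as columns; a white cell means that no peak was called within 1 kb. GRHL2 and the ELF3 starts are high in every list, ELF5 and KLF5 have promoter peaks in SKBR3 only, and the third start cluster of EHF and the TAp63 start have peaks in all 4 MDA-MB-453 lists.

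Peak clusters that would rank as super-enhancers were looked for by stitching peaks within 12.5 kb, leaving out those wholly within 2.5 kb of a start, and ranking by summed width times fold enrichment. Such super-enhancer-like regions overlapped the windows of ELF3, EHF, SPDEF, GRHL1 and GRHL2 in all 4 SKBR3 lists, and those of ELF3, EHF, SPDEF, GRHL2 and TP63 in all 4 MDA-MB-453 lists. These are 5 of 10 factors in each line, beside 12.1% and 8.84% of all 18251 genes. EHF held rank 7, 6, 8 and 6 among the 18080 to 18918 stitched regions of an MDA-MB-453 list and rank 452 to 647 in SKBR3. ELF3 held rank 8, 34, 9 and 11 in SKBR3 and rank 269 to 363 in MDA-MB-453. EHF thus ranked far higher in MDA-MB-453 and ELF3 in SKBR3. In the SKBR3 lists where ELF3 held rank 8, 9 and 11 the stitched region spanned 152.7, 137.1 and 155.1 kb and ran past the end of the ELF3 window, whereas in the list with rank 34 it spanned 66.04 kb and ended inside it. GRHL1 had such a region in 4 of 4 SKBR3 lists and 0 of 4 MDA-MB-453 lists, and TP63 the reverse, while ELF5, KLF4, KLF5 and OVOL1 had none in any list. The highest-ranked TP63 region in MDA-MB-453 began upstream of the window, except in untreated replicate 2, where it was chr3:189755767-189783856 inside the gene. At GRHL2 in SKBR3 it began before the window in every list except TWEAK replicate 1. With a stitching distance of 5 kb GRHL1 no longer had one in all 4 SKBR3 lists, nor ELF3 in all 4 MDA-MB-453 lists.

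Of the 128 merged regions, 36 were present in all 8 lists (28.1%, against 23.3% of all regions), 20 were in all 4 SKBR3 and no MDA-MB-453 list (15.6%, against 14.1%), and 3 were in all 4 MDA-MB-453 and no SKBR3 list (2.34%, against 10.5%). The SKBR3-specific regions were found at 8 of the factors, with 4 each at KLF5, GRHL1 and GRHL2, 3 at ELF5, 2 at TP63, and 1 each at EHF, SPDEF and KLF4. The MDA-MB-453-specific regions were 2 introns of TP63 and 1 intergenic region at EHF. At the stricter q-value, 3 regions were SKBR3-specific and 7 MDA-MB-453-specific, which reversed the order of these counts. A KLF motif was present in the central 1000 bases of 12 of the 20 SKBR3-specific regions (60%), against 32.5% of all SKBR3-specific regions and 34.4% of all 128 regions of the factors. AP-1, ETS, NF-κB and grainyhead motifs were present in 6, 3, 3 and 1 of the 20, against 27.1%, 26.5%, 14.0% and 9.59% of all SKBR3-specific regions.

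Parts of 3 SKBR3-specific regions are shown as examples, picked after their values were seen, to show AP-1 and NF-κB motif matches, which are motifs of factors downstream of TWEAK. Each is the SKBR3-specific region of its factor with the highest mean percentile. The corresponding regions of SPDEF and KLF4 also held an AP-1 site, and that of ELF5 an NF-κB motif. Capitals mark AP-1 sites in all 3, a grainyhead site (AACTGGTT) in EHF and an NF-κB site (GGAAAGCCCC) in GRHL1. They are intergenic and on the plus strand of hg38, at chr11:34681296-34681465 for EHF, chr13:73096353-73096439 for KLF5 and chr2:10036184-10036408 for GRHL1. The GRHL1 element lies past the gene end (10002277), close to a region at the KLF11 promoter that starts at 10038822.
EHF SKBR3 element: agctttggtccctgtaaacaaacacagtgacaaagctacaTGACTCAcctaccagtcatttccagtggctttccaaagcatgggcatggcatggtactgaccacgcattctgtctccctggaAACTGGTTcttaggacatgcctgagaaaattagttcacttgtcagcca
KLF5 SKBR3 element: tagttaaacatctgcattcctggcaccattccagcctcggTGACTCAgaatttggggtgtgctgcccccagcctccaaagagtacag
GRHL1 SKBR3 element: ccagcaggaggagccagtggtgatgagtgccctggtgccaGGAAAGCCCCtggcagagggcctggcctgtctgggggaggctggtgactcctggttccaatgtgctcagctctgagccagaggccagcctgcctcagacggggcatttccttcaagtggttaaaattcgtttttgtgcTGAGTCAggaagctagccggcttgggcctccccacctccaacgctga
The EHF region stood at the 63.3, 65.5, 71.4 and 74.99 percentile in SKBR3. The KLF5 region stood at the 29.8, 56.1, 57.9 and 74.1 percentile, and the GRHL1 region at 50.7, 30.5, 77.6 and 86.3. In all 3 regions both TWEAK lists were above both untreated lists, and none of the 3 was present in an MDA-MB-453 list. Of the other SKBR3-specific regions with the highest mean percentile of their factor, an ELF5 region is the promoter shown above. The SPDEF region (chr6:34559895-34561678) stood at the 31.9, 37.8, 38.7 and 14.9 percentile, the KLF4 region (chr9:107455150-107456922) at 45.7, 42.0, 46.0 and 36.9, and a TP63 intron (chr3:189841090-189844546) at 40.6, 35.9, 33.9 and 72.0. Of these, the SPDEF and KLF4 regions also held an AP-1 site, and both had their lowest value in TWEAK replicate 2. A GRHL2 intron stood at 33.9, 44, 35.2 and 41.0. The MDA-MB-453-specific regions were weak at EHF (chr11:34585907-34588054, 2.46 to 17.4 percentile) and stronger in the TP63 intron at chr3:189716449-189718713 (40.3, 43.8, 51.1 and 51.6).

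The rank of shared regions was tested on the within-list percentile of the score. Of the 36 regions present in all 8 lists, 10 were higher and 8 lower in SKBR3 (limma, adjusted p over 17704 regions), beside 36.5% higher and 25% lower among all shared regions. The region with the smallest adjusted p was intergenic, near OVOL1 and 19.6 kb from the nearest start (SNX32), at chr11:65812634-65816098. It stood at the 13.3, 18.9, 37.6 and 26.2 percentile in SKBR3 and at the 83.6, 82.7, 80.3 and 80.3 percentile in MDA-MB-453, a difference of −57.7 ± 2.9 percentile points (limma adjusted p = 7.586e-05). A GRHL2 intron 10.2 kb from the start was also lower in SKBR3, with a difference of −26.5 ± 2.2 (limma adjusted p = 0.0003415). The promoter of KLF11 in the GRHL1 window differed by −17.6 ± 1.9 points. Higher in SKBR3 were an intergenic region at ELF5, chr11:34535673-34538990, by 18.5 ± 1.9 points, and an intron of TP63, chr3:189709789-189713573, by 33.1 ± 3.6 points. The TP63 intron thus ran against the covered length of that gene, and its SKBR3 values of 65.4 and 55.4 (untreated) and 91.7 and 98.9 (TWEAK) compare with 37.1 to 51.7 in MDA-MB-453. Its untreated peaks, however, did not overlap between the lines. They lay 78.74 to 80.17 kb from the TAp63 start in SKBR3 and 81.24 to 81.81 kb from it in MDA-MB-453. The difference between the lines there compares neighbouring stretches in part.

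The second comparison asked whether TWEAK altered acetylation at the factors. By covered length 0 of 10 factors were called in SKBR3, where limma called 1.78% of all genes, and 0 of 10 in MDA-MB-453, where it called 0%. The differences between TWEAK and untreated lists lay between −0.11 and 0.95 in SKBR3 (median 0.06) and between −0.34 and 0.02 in MDA-MB-453 (median −0.03) on the log2 scale. At an unadjusted p of 0.05, 1 factor in SKBR3 (TP63) and 0 in MDA-MB-453 passed, beside 2755 and 381 of all 18251 genes. The difference of the TWEAK effect between the lines was called for 0 of 10 factors by limma, with 0 at an unadjusted p of 0.05, beside 1636 of all genes, and 0% of all genes called. With 2 lists against 2 an exact permutation test cannot give a p below 0.3333, and a p that misses the threshold does not show that TWEAK left these loci as they were. In SKBR3 the SEs ranged from 0.06 at EHF to 0.37 at TP63.

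TP63 had the largest of these differences. Its window in SKBR3 went from 9.83 and 16.3 kb without to 16.3 and 39.3 kb with TWEAK, and from 8 and 12 to 12 and 24 peaks. The higher untreated and the lower TWEAK list lay side by side at 16.34 and 16.33 kb, so the groups overlapped and TWEAK replicate 2 stood alone above the rest. The log2 difference was 0.95 ± 0.37 (limma adjusted p = 0.2902). Without SKBR3 TWEAK replicate 1 it was 1.56 (adjusted p = 0.02359), and without replicate 2 it was 0.34 (adjusted p = 0.6644). With the replicate number as a block it was called (adjusted p = 0.03867). TWEAK replicate 2 is also the longest list, with 51687 peaks. With lists cut to equal size the difference was 0.84 (adjusted p = 0.2615). In MDA-MB-453 it was 0.02 ± 0.37, and the difference between the lines was 0.93 ± 0.53 (adjusted p = 0.6854). In that list 7 regions of the TP63 window were found that no other SKBR3 list held, of which 3 were present in all 4 MDA-MB-453 lists. Over the whole genome that list held 7492 regions found in no other SKBR3 list, against 2165 to 4751 for the others, and 10.6% of the 7492 were in all 4 MDA-MB-453 lists.

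Regions that appeared or disappeared with TWEAK were counted by presence, without a test. In SKBR3, 6 of the 131 regions in the windows were in both TWEAK and neither untreated list (4.58%, against 4.61% of all 62104 regions), and 1 was in both untreated and neither TWEAK list (0.763%, against 1.4%). In MDA-MB-453, 0 of 64 regions appeared and 0 disappeared, beside 1.33% and 1.3% of all 42831 regions. The shares at the factors in SKBR3 were close to or below those of the genome. Of the 6 that appeared, 3 lay at TP63 and 1 each at SPDEF, KLF4 and GRHL2, and the one that disappeared was near OVOL1. Leaving out 1 SKBR3 list changed the numbers to between 7 and 25 (25 without TWEAK replicate 1, 15 without TWEAK replicate 2) for appearance and to between 2 and 17 (17 without untreated replicate 2) for disappearance.

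Of the TP63 regions that appeared in SKBR3, the pair with AP-1 sites, and the OVOL1 region that disappeared are shown by stretches around their motif matches, with capitals marking AP-1 sites in TP63 and an NF-κB site in OVOL1. All are on the plus strand of hg38. The upstream TP63 region gave chr3:189587809-189587895 and chr3:189588691-189588777, the intronic one chr3:189773502-189773588 and OVOL1 chr11:65785488-65785551.
TP63 upstream element, first AP-1 match: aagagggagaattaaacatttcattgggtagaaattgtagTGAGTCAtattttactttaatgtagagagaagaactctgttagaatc
TP63 upstream element, other AP-1 match: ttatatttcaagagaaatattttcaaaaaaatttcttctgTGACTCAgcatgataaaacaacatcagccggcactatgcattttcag
TP63 intronic element: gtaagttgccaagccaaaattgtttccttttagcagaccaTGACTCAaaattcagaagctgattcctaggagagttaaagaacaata
OVOL1 upstream element: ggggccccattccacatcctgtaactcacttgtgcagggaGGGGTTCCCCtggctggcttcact

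The upstream TP63 region, 43.0 kb before the TAp63 start at chr3:189587498-189589279, stood at the 37.6 percentile in TWEAK replicate 1 and the 75.7 percentile in replicate 2, and its peaks were 0.656 and 1.78 kb wide. The intronic TP63 region at chr3:189772218-189774452 stood at the 37.6 and 80.1 percentile, with peaks of 0.918 and 2.24 kb. The intronic region had a peak in all 4 MDA-MB-453 lists, with or without TWEAK. The upstream region was overlapped in the MDA-MB-453 lists except TWEAK replicate 2, whose peak ended short of it, 44.67 kb before the TAp63 start. The third TP63 region, at chr3:189824300-189824591, was under 0.3 kb long, stood at the 33.9 and 48.3 percentile, and had a peak in 0 MDA-MB-453 lists. The KLF4 region at chr9:107538965-107540373, 49.2 kb from the start, stood at the 9.13 and 43.7 percentile, whereas those at SPDEF and in an NCALD intron of the GRHL2 window were short peaks at the 6.38 and 5.41, and the 6.38 and 26.2 percentile. Over its whole length the KLF4 region held 1 NF-κB, 1 ETS and 1 KLF match. The SPDEF and NCALD regions and the third TP63 region held none of the motifs searched. The OVOL1 region that was absent with TWEAK, 2.44 kb from the start at chr11:65783699-65785551, had stood at the 45.7 and 22.2 percentile in the untreated SKBR3 lists. Across all 76044 regions 23.01% held an AP-1 site and 13.8% an NF-κB motif in the central 1000 bases, and the figures for the 128 regions of the factors were 22.7% and 10.2%. The TP63 and OVOL1 matches shown above were found over the whole region, lie outside those central bases and are not counted in these shares. No share of all regions is given for whole-region matches, so they have no background beside them.

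By rank, limma called 0 of 67 shared regions of the factors with TWEAK in SKBR3 (0% of 30803 regions, lowest adjusted p of the factors 0.4545, 5 with an unadjusted p below 0.05 beside 2807 of all regions) and 0 of 50 in MDA-MB-453 (0% of 31162, lowest adjusted p 0.5276, 7 with an unadjusted p below 0.05 beside 2610 of all regions). The values of the regions with the smallest p are given without a call. The TP63 intron at chr3:189709789-189713532 had 65.4 and 55.4 without and 91.7 and 98.9 with TWEAK, a difference of 34.9 ± 5.5 points. Another TP63 intron, chr3:189806176-189806742, had 46.8 and 50.8 without and 11.7 and 10.3 with TWEAK, a difference of −37.9 ± 3.4. The 2 introns thus differed in opposite directions, and in each the TWEAK and untreated lists were apart. Both introns were picked by their small p in this same contrast, so that separation adds no evidence of its own.

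The element in the GRHL1 window shown above, close to the KLF11 promoter, had a difference of 41.4 ± 8.8 points. A region upstream of KLF5 (chr13:73018106-73019176) had one of 19.7 ± 4.3, and a region beyond the end of EHF (chr11:34683913-34686590) one of 32.3 ± 9.1. All 3 were higher in both TWEAK lists of SKBR3 than in both untreated lists, which is largely a result of picking regions by this contrast. In MDA-MB-453 the 5 regions with the smallest p differed by less. An intergenic region near ELF3 (chr1:202022683-202023796) went from 35.4 and 35.0 to 23.2 and 22.9, and a TP63 intron (chr3:189673973-189675113) from 20.5 and 23.7 to 8.20 and 9.91. The others were the region shared by ELF5 and EHF (6.6 ± 1.5 points) and TP63 introns at chr3:189716449-189718713 (9.3 ± 1.9) and chr3:189701763-189703273 (8.8 ± 2.4).

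**Figure D5:**
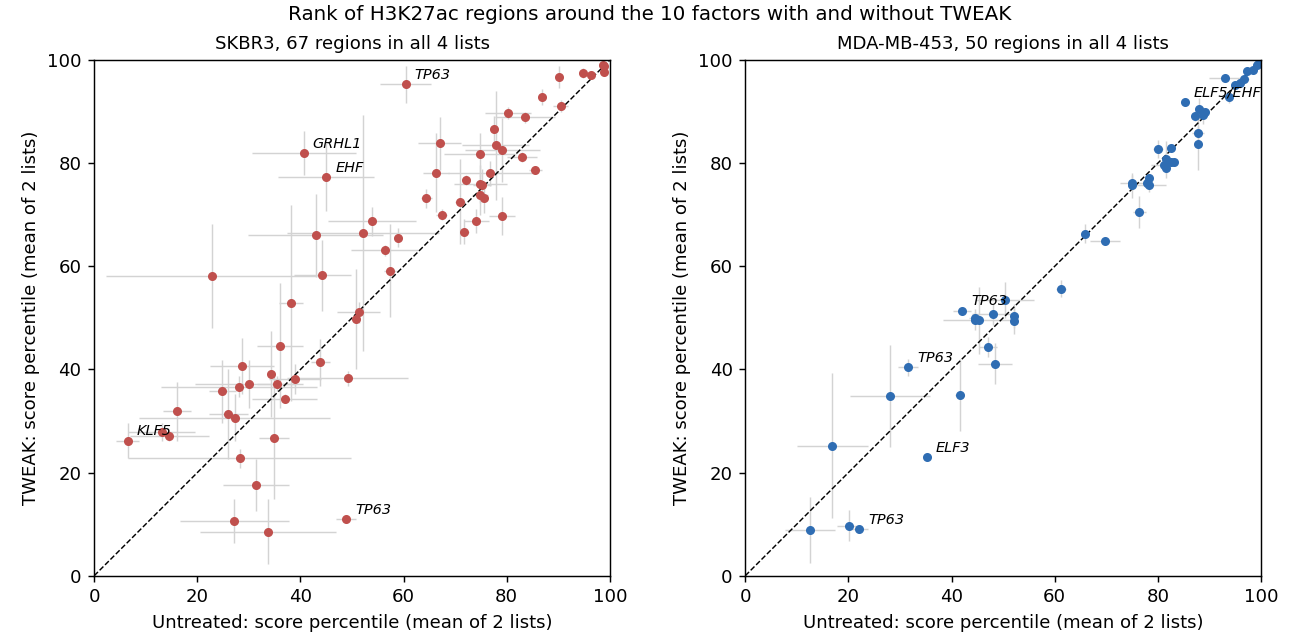
Within-list percentile of the peak score with TWEAK (vertical axis) against untreated (horizontal axis) for the regions of the 10 factors present in all 4 lists of SKBR3 (67 regions, left) and MDA-MB-453 (50 regions, right); points are means of 2 lists, grey bars span the 2 lists, the dashed line marks equality, and the 5 regions with the smallest p are named. The named GRHL1, EHF and KLF5 regions and 1 TP63 intron lie above the line in SKBR3 and another TP63 intron below it, the MDA-MB-453 points lie closer to the line, and 0 regions were called.

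A test of whether the TWEAK difference in rank itself differed between the lines called 0 of 36 regions (limma, 0% of 17704, lowest adjusted p of the factors 0.3343, 6 with an unadjusted p below 0.05 beside 1608 of all regions). The TP63 intron at chr3:189709789-189713573 had the largest such difference, 42.2 ± 7.2 points, since its MDA-MB-453 percentiles were 45.1 and 51.7 without and 37.1 and 45.2 with TWEAK. As stated above, the untreated peaks in this intron did not overlap between the lines. The EHF region beyond the gene end followed with 37.8 ± 10.1 points, and its MDA-MB-453 values were 60.3 and 62.1 without and 54.0 and 57.4 with TWEAK. The GRHL1 promoter, whose SKBR3 percentile was 78.0 and 76.9 without and 84.2 and 89.2 with TWEAK, had a difference of 9.7 ± 3.0 points. The last pair were the OVOL1 neighbour at chr11:65812634-65816098 (18.6 ± 5.8) and a region downstream of TP63 at chr3:189935775-189949151 (9.2 ± 2.9).

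Other genes of the same families and of the epithelial programme were examined by covered length. Of 15 relatives, 9 were called higher and 4 lower in SKBR3, beside 47.6% and 27% of all genes. Their differences had a median of 0.50 against 0.23 for all genes. The largest were ETS2 (2.39 ± 0.10), ETS1 (2.01 ± 0.15), KLF6 (1.42 ± 0.10), OVOL2 (1.08 ± 0.08) and ELF4 (1.03 ± 0.13), while KLF3 was lower (−0.44 ± 0.06). With TWEAK in SKBR3, 1 of the 15 was called, and this was ETS1, an ETS factor outside the epithelium-restricted subgroup. Its window was covered by 4.19 and 2.98 kb without and by 10.98 and 16.0 kb with TWEAK in SKBR3, and by 0.729 to 1.27 kb in MDA-MB-453. The log2 difference in SKBR3 was 1.65 ± 0.21 (limma adjusted p = 0.01728). Both TWEAK lists exceeded both untreated lists, but the call was lost on leaving out any of 6 of the 8 lists (adjusted p 0.07272 to 0.08235), with SKBR3 fitted alone (adjusted p = 0.2783) and without the filter on genes (adjusted p = 0.05774). The difference of the TWEAK effect between the lines at ETS1 was 1.93 ± 0.29 and was not called (limma adjusted p = 0.138).

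Of 14 genes of the epithelial programme, 11 were called higher and 2 lower in SKBR3, beside 47.6% and 27% of all genes. Their median difference was 0.68. ST14, which encodes matriptase, was higher by 2.03 ± 0.09, CLDN4 by 1.14 ± 0.12 and SPINT1 by 0.93 ± 0.04. CDH1 had 0 to 0.395 kb in SKBR3 and 30.9 to 32.9 kb in MDA-MB-453, and ESRP1, a splicing factor, was lower in SKBR3 (−0.80 ± 0.08). No gene of this group was called with TWEAK by limma in either line, with lowest adjusted p-values of 0.1603 and 1.0. Of 5 factors that oppose the epithelial state, SNAI1 (21.7 to 30.0 kb against 5.36 to 6.46 kb) and ZEB2 were called higher in SKBR3, SNAI2 (0 kb in every SKBR3 list against 1.85 to 2.13 kb) and ZEB1 lower, and TWIST1 was not called.

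The genes whose covered length over the 8 lists was most like that of each factor, by Euclidean distance on the log2 scale and at least 1 Mb away, were listed as a description. For ELF3 they were CCDC12, DNAJB1 and TECR (distances 0.20 to 0.21), for GRHL1 KIRREL3, HDAC11 and LHPP, and for GRHL2 P3R3URF-PIK3R3, ARHGAP32 and KRT86. For EHF they were ABCC11 (0.28), TRPS1 (0.30) and RNF212B. For KLF5 they were VIPR2, IL15RA and RNF113B, for KLF4 BCL2L11, GTF2H2C and TNFRSF1B, for ELF5 PHC2, DDOST and PPIAL4G, for SPDEF BORCS6, SLC10A3 and IL17RC, and for OVOL1 ADPRHL1, EPOR and TSPAN16. TP63 had no close match, its nearest genes being WWC3 (0.93), IL1R1 (1.13) and OSBPL10 (1.28).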

How the data were processed

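H3K27ac ChIP-seq was analysed from 8 peak lists. The authors trimmed reads with Trimmomatic, mapped them to hg38 with Bowtie2, called peaks in MACS2 against the subtracted input, and discarded blacklisted regions; versions and calling options are not given in the sources used here, and deepTools is named in the submitters' processing notes. Each deposited list gives a whole-number score (10 times the −log10 q-value), a fold enrichment ratio, a −log10 p-value and a −log10 q-value for each peak. The authors' lowest −log10 q was about 1.0 in every list. The layout is that of broad peaks. The 2 inputs have no list here. The study compared signal from reads with DiffBind, whereas reads were not used here, so the depth is unknown, no interval for counting error can be given, and absence of a region from a list does not show absence of signal.

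Chromosomes 1 to 22 and X were analysed with GENCODE release 44, pysam 0.24.0 and pandas 2.3.3. Peaks were compared by an overlap of at least 1 bp. limma 3.58.1 (R 4.3.3) was fitted with 4 group means over the 18251 of 19970 genes with covered length above 0 in at least 2 lists, and to the percentile of the score within its list over regions present in every list of a contrast, with Benjamini-Hochberg adjustment and a threshold of 0.05; the fit was tested on simulated data. Presence, promoter and super-enhancer-like results have no test. All 10 factors, every region gained or lost, the line-specific regions, the 5 regions with the smallest adjusted p in each rank contrast, and the 3 genes most alike were to be named. The factors, gene lists and motifs were chosen with earlier results of these data known. The alternatives tried were a q-value under 1e-05, lists of equal size, pseudocounts of 0.1 and 5 kb, other windows and overlaps, no filter, median centring, each line alone, a replicate block and each list left out. Sequences were read from the hg38 reference, and some of those examined are not reported here.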

Additional observations from a re-analysis of the deposited data

Results flagged for a closer look

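Within each group of 4 lists of a line, a list was looked at again when its gap to the nearest other list was too large a share of the range by Dixon's 95% critical value for 4 values. Of 59 such groups 6 were marked. The usual rate of about 1 in 20 does not apply here. Each group mixes untreated and TWEAK lists, and the measures of a window are not independent. SPDEF was covered by 28.35 kb in MDA-MB-453 untreated replicate 2, above 27.6 to 27.7 kb in the others. KLF5 had its only MDA-MB-453 peak in the same list, so that its covered length and its widest peak were both 0.602 kb there and 0 elsewhere. The widest GRHL1 peak measured 23.71 kb in SKBR3 untreated replicate 1 and 16.2 to 16.8 kb in the other SKBR3 lists. GRHL2 was covered by 70.16 kb in SKBR3 TWEAK replicate 2 and by 55.5 to 56.5 kb in the others, and the widest OVOL1 peak measured 5.149 kb in that list and 7.596 to 7.93 kb in the others. SKBR3 TWEAK replicate 2 is the list with the most peaks, 51687, and its part in these values was not tested.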

How the results depend on the processing

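The difference between the lines kept its direction and its call at ELF3, EHF, KLF5, GRHL1 and TP63 under every alternative tried. With a q-value under 1e-05 only 4 factors were called higher in SKBR3 in place of 7; SPDEF (−0.0037) and GRHL2 (−0.205) changed sign there, and KLF4 did so over the gene body (−0.19). OVOL1, not called in any fit, changed sign at the stricter q-value (−0.20), with flanks of 100 kb (−0.090), equal list sizes (−0.0066), the gene body (−0.13), median centring (−0.22) and nearest starts only (−0.090), and ranged from −0.093 to 0.16 with 1 list left out. The rank comparison of the lines depended on the overlap: 1 higher and 3 lower region where a list had to cover at least 50% of it, and 4 higher at the stricter q-value.

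Presence moved most. Gained regions in SKBR3 were 1 (stricter q-value), 3 (equal sizes) and 10 (100 kb flanks), and 7 to 25 with 1 list left out; lost regions were 0, 3 and 2, 3 with the 50% overlap, 0 with peaks merged up to 1 kb apart, and 2 to 17 with 1 list left out. In MDA-MB-453 gained regions were 1 (stricter) and 2 (50% overlap), and lost ones 1 (equal sizes), 1 (50% overlap) and 3 (100 kb flanks), each 0 to 4 with 1 list left out. SKBR3-specific regions were 3 (stricter) and 12 (equal sizes), and 20 to 25 with 1 list left out; MDA-MB-453-specific ones were 7, 5, 8 (50% overlap) and 5 (100 kb flanks), and 3 to 6.

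The labels link replicates only by their number. Replicate differences correlated at 0.47 in SKBR3 and −0.04 in MDA-MB-453 (2 pairs a line). What the SKBR3 libraries of the same number had in common is not known. With a replicate block 1 factor, TP63, was called higher with TWEAK in SKBR3 in place of 0, and 0 to 1 with 1 list left out; under the block no other factor was called for TWEAK in either line. Over all genes, those higher with TWEAK in SKBR3 numbered 290, 142 without the filter, 0 with SKBR3 fitted alone, and 20 to 1269 with 1 list left out; those lower numbered 35, 0 to 105, and 0 to 183. The counts of 0 for TWEAK in MDA-MB-453 and for the difference between the lines rose to at most 13 and 113 higher and 16 and 28 lower under other settings, and for that difference to 322 higher and 16 lower with 1 list left out. Genes higher in SKBR3 than MDA-MB-453 numbered 8684, 5237 over gene bodies and 5737 by nearest start; shared regions higher numbered 6460, 2229 (50% overlap) and 2712 (stricter), and lower 4424 and 1628 (50% overlap). The causes were not tested. With read depth unknown, absence from a list limits every count of presence.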
